A study of Arabidopsis thaliana with 6 samples.

Results

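The baseline transcriptome of sorted lateral root cap cells was described from the 2 untreated arrays of a series of 6 arrays. The plants were 5 days old Arabidopsis thaliana seedlings on standard medium, ecotype C24, that carried the J2632 driver and UAS::ARR1ΔDDK-GR. The other 4 arrays held the same cells after 1 h or 4 h of dexamethasone, 2 arrays each, and entered no comparison here. J2632 is an enhancer trap line in which a GAL4 activator marks lateral root cap cells with a fluorescent protein and drives genes placed behind UAS. ARR1 is a type-B response regulator, a transcription factor of the cytokinin pathway, here without its receiver domain and joined to the hormone-binding part of the glucocorticoid receptor, which holds a fused protein in the cytosol while no dexamethasone is present. The untreated cells therefore carried the fusion but had received no dexamethasone, and no group lacked the construct. The protocol field names either protoplasted cells or tissue, and does not say which applied to these arrays.

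The lateral root cap is the outer sheath that covers the flanks of the root meristem. Its cells secrete wall material, meet the soil first, and are shed or die by a developmental cell death programme that involves proteases and nucleases and is followed by corpse clearance. In this tissue cytokinin is known to act on the root's auxin through GH3.17, which joins auxin to amino acids. Brassicaceae roots also hold endoplasmic reticulum bodies (ER bodies), organelles packed with beta-glucosidases that release defence compounds from their glucosides when cells are broken.

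Each array gave 1 linear intensity for each of 22810 probe sets, and after 64 control probe sets were set aside 22746 remained. Probe sets were ranked by the mean of log2(intensity + 16) over both arrays, and a level given with its SD is on this log2 scale (n = 2 arrays). Paired values are intensities on replicate 1 and replicate 2, in that order. Probe sets bind their transcripts with unequal strength, so a rank describes signal on the array and is not a transcript number. The members of the 2 sets described here were the 300 probe sets of highest mean, 1.32% of all, and the 6312 probe sets, 27.7% of all, that lay close to the Bacillus subtilis controls, transcripts that plant RNA does not contain. Close meant at or below the 95th percentile of the 27 Bacillus controls on both arrays, an intensity of 32.5 on replicate 1 and 29.1 on replicate 2. A further 13516 probe sets, 59.4% of all, exceeded that background on both arrays, and 2918, 12.8%, exceeded it on only 1 array.

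A single gene with a locus could be named for 114 of the highest 300, against 13436 of all 22746 probe sets. The platform annotation did not list 169 of the 300, a share of 56.3%, while it did not list 38.4% of all probe sets. Another 15 of the 300 matched several genes and 2 matched 1 gene without a locus. The genes named below are thus a minority of the strongest signals. Of the 114 named genes, 90 carry a locus in place of a gene symbol, 78.9% beside 88.4% of all named genes. The other 24 carry a gene symbol.

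The strongest signals formed a short, steep head of the distribution. The mean of the highest 300 spanned 14.89 to 12.15 with a median of 12.70, while the median of all probe sets was 6.22 and that of the set close to the controls was 4.79. The highest 300 held 32.2% of the summed intensity on replicate 1 and 27.5% on replicate 2. The highest 10 alone held 3.23% and 2.53%, and the 6312 probe sets close to the controls held 0.921% and 0.974%. Bacterial and phage transcripts added before hybridisation place this range: the bioB probe sets, the weakest of them, read between 41.2 and 126 over both arrays, bioC between 948 and 2372, bioD between 3066 and 10861, and the phage cre probe sets between 13958 and 32997. The highest 300, whose mean levels correspond to intensities between 30268 and 4520, thus lay within the span of the bioD and cre signals.

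**Figure D1:**
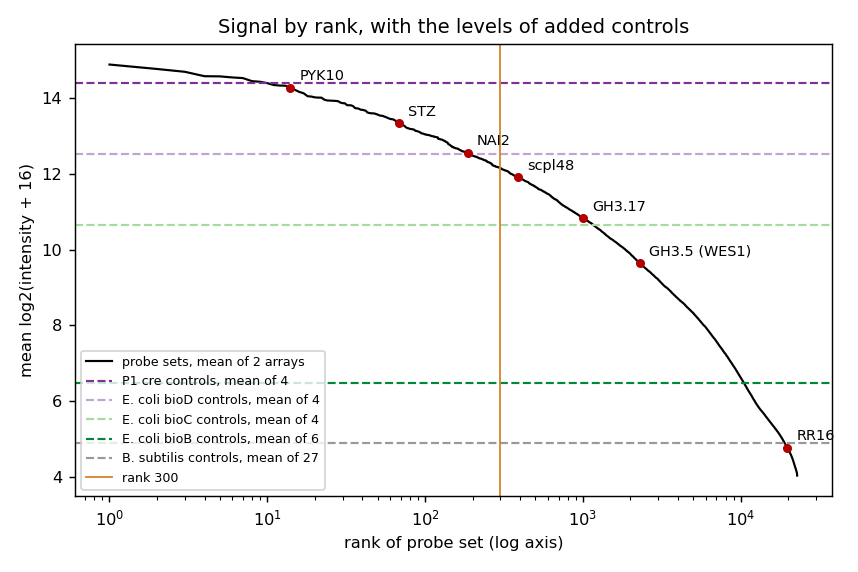
Mean log2(intensity + 16) of the 22746 probe sets against rank (log axis), with the mean level of each kind of added control as a dashed line and 7 genes as points. The curve falls below the bioD level of 12.51 before rank 300, where it stands at 12.15, and PYK10 lies beside the phage cre level.

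The 30 named genes of highest mean included 6 with a symbol: PYK10, JAL34, SRC2, sks15, GSTU22 and JAL33. The strongest named gene was the locus AT2G43610, on chromosome 2 between 18087812 and 18089371 of assembly TAIR10.1, with 31699.8 on replicate 1 and 24553 on replicate 2. It ranked at place 2, behind a probe set that the annotation does not list, and averaged 14.77 ± 0.26. AT5G60530 followed at rank 3 with 31033 and 22635, AT5G54370 at rank 4 with 31056 and 19236, and AT1G52050 at rank 5 with 31173 and 19046. All 4 read at or above 19046 on both arrays, within the range of the cre controls. AT1G25275 (27622 and 20667), AT1G52070 (28199.7 and 19776), AT1G52060 (26343 and 17578) and AT3G19430 (29839 and 14211) completed the 8 strongest named genes. Among these 8, AT3G19430 had the widest spread between arrays, at 14.33 ± 0.76, and AT2G43610 the narrowest. The remaining locus-only genes of the 30 ran from AT5G35735 (21479.9 and 16801 at rank 15) to AT3G53990 (11419 and 10916 at rank 60). In 29 of the 30, replicate 1 was the higher array, and sks15 was the exception. Over all named genes replicate 1 was higher in 6522 of 13286.

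Neighbouring loci recurred at the top. AT1G52050, AT1G52060 and AT1G52070 stand next to each other among the measured named genes of chromosome 1, between 19354919 and 19366925, at ranks 5, 10 and 7. The adjacent loci AT5G60520 and AT5G60530 ranked 97 and 3, AT2G43600 and AT2G43610 ranked 171 and 2, and the lectin genes JAL33 and JAL34 ranked 48 and 24. These made 5 adjacent pairs in all. Of the 88 genes of the highest 300 that had a measured neighbour, 9, or 10.2%, had a neighbour also in the highest 300, against 107 of 8741 other genes, or 1.22%. With the highest 600 in place of 300 the count was 19 of 184, or 10.3%. The share of other genes was not computed at that depth, and the 1.22% does not serve for it. Whether related sequences share signal through their probes was not tested, and no probe sequences were used here.

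Position and length of the strongest genes can be set beside those of all named genes. Chromosome 1 held 33 of the 114 named genes, 28.9% against 25.7% of all 13286 named genes, and chromosome 2 held 13, 11.4% against 16.3%. The plastid genome held none of the 114. The median gene length was 1916.5 bases in the highest 300, 2111 bases over all named nuclear genes, 1698 bases in the set close to the controls and 2335 bases in the set above background. Genes of the highest 300 were thus shorter at the median than genes above background in general, and genes close to the controls were shorter still.

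The list with the most members in the highest 300 was a mixed one of glucosidase, lectin and ER body genes. PYK10, the beta-glucosidase that is the main protein of root ER bodies, read 21732 and 18103 and ranked 14, at 14.28 ± 0.19. JAL34, a jacalin-related lectin, read 16409 and 14951, and JAL33, its neighbour on chromosome 3 between 5588292 and 5590085, read 13667 and 11103. NAI2, a protein that ER bodies need to form, read 5919.7 and 6125 at rank 186. These 4 genes were the members of a list of 28 measured glucosidase, lectin and ER body genes that lay in the highest 300. Over all named genes the share was 114 of 13286, 0.858%. NAI1, the transcription factor of ER body genes, was present at a far lower signal of 302 and 436.

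Most of the 28 genes on this list were at or near background. BGLU16 (4531 and 4096) and BGLU25 (3085 and 3230) followed NAI2 in rank, and BGLU15, NAI1, BGLU42, BGLU36 and BGLU41 were the other members above background on both arrays. That made 11 of 28, or 39.3%, beside 55.9% of all named genes. Another 7 members exceeded background on 1 array, and 10 lay close to the controls, among them BGLU31 at 1.07 and 3.57. The list's median percentile among named genes was 37.3. Mean levels ran on from NAI2 (12.56) to BGLU16 (12.08) and BGLU25 (11.63), and then fell to BGLU15 (9.24). The 6 strongest members, PYK10 to BGLU25, thus stood apart from the rest of the list. Without replicate 1, 17 of the 28 members were above background, and without replicate 2, 12 were. A call on 1 array asks less than a call on both.

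**Figure D2:**
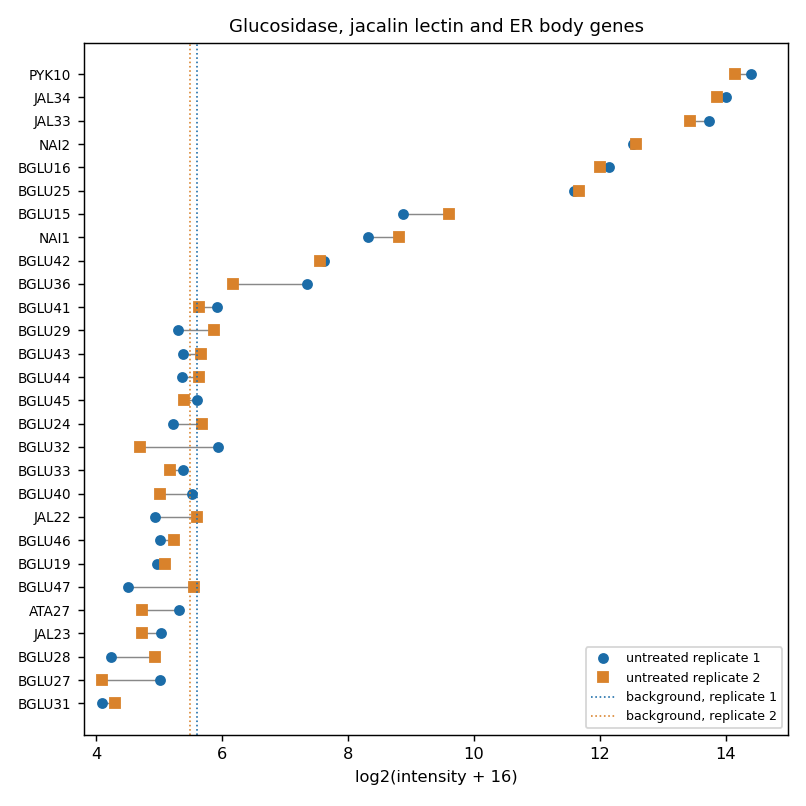
Log2(intensity + 16) of the 28 measured glucosidase, jacalin lectin and ER body genes on replicate 1 (circles) and replicate 2 (squares), with each array's background as a dotted line. PYK10, JAL34, JAL33 and NAI2 lie at the top, BGLU16 and BGLU25 follow, and most of the other genes sit beside the background lines.

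Markers of the root cap were above background where they could be measured. The list held 16 genes, of which 6 had a named probe set. All 6 were above background on both arrays, beside 55.9% of all named genes. Whether these 6 genes are particular to the root cap among root cells was not tested. AT4G04460 (PASPA3) read 5545 and 3578 at rank 306, just outside the highest 300. The carboxypeptidase-like gene scpl48 read 3852 and 3841 at rank 388, almost the same on both arrays. AT4G18425 (DMP4) read 2718 and 1753. GH3.17, the auxin-conjugating enzyme named above, read 1677 and 1934 at rank 1001, at 10.83 ± 0.14, close to the level of the bioC controls. AT2G14095 (EXI1, 1655 and 809.6) and AT1G65570 (RCPG, 643 and 771) were the lowest, and the list's median percentile was 97.1.

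Markers of other root cells were at or near background. The lists for columella, quiescent centre and meristem, endodermis, cortex, stele, root hair and non-hair cells held 51 genes, of which 6 were measured. None of these 6 was above background on both arrays, beside 55.9% of all named genes. CR4 (also ACR4), a receptor kinase used for the columella, read 4.43 and 14.8. AGL42 of the quiescent centre read 0.788 and 24.7, and AT1G62500 of the cortex read 27.7 and 27.3. All of these lay close to the controls, as did the root hair expansin EXPA7 at 3.83 and 5.86. The receptor kinase gene GSO1 of the endodermis exceeded background only on replicate 2 (32.4 and 53.0), and the root hair expansin EXPA18 only on replicate 1 (48.5 and 14.8). The 6 markers of other cells summed to 118 and 140. By the background calls the markers did not go against the label of the cells, within what 6 of 51 markers can show: no marker of the stele or of non-hair cells was measured. On sorted bulk RNA, fewer cells of a type and less RNA per cell cannot be told apart.

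**Figure D3:**
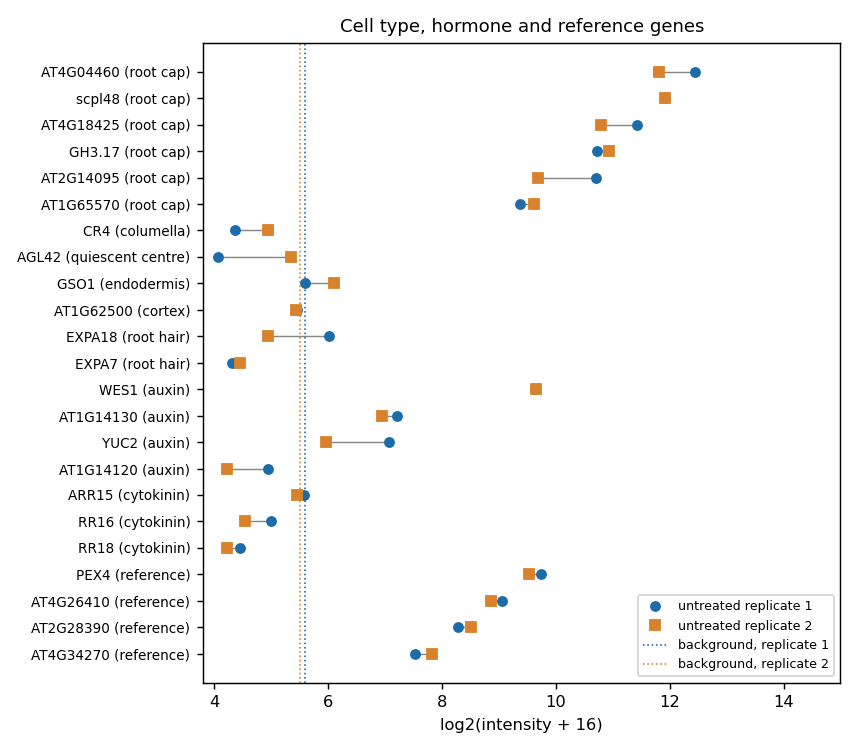
Log2(intensity + 16) of every measured cell type, auxin, cytokinin and reference gene on replicate 1 (circles) and replicate 2 (squares), with each array's background as a dotted line. All 6 root cap genes lie well to the right of the background, and none of the 6 genes of other cell types is above it on both arrays.

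Hormone genes were measured in small numbers. WES1 (GH3.5), a second enzyme that joins auxin to amino acids, read 780 and 785 at rank 2285, at 9.64 ± 0.01. YUC2, an enzyme of auxin synthesis, read 119 and 46.2, above background on both arrays with a spread of 0.79. The auxin list's loci AT1G14130 (132 and 107) and AT1G14120 (14.7 and 2.75) fell on opposite sides of the background. Of the 16 auxin genes 4 were measured. Of 19 cytokinin genes 3 were measured, and all 3 were close to the controls, beside 30.7% of all named genes. ARR15 (31.3 and 27.8) and RR16 (16.002 and 7.10) are type-A response regulator genes, which cytokinin is known to induce. RR18 (5.94 and 2.75) is a type-B regulator. No other gene on the cytokinin list was measured.

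Other strong signals with a name came from genes of wall, membrane and redox function. SRC2, a membrane-bound C2-domain protein, read 17602 and 13630 at rank 28. The multicopper oxidase-like genes sks15 (13665 and 14562) and sks16 (10465 and 11683), relatives of SKU5, ranked 35 and 63, and SKU5 itself read 2867 and 2806. EXPA9, an expansin that loosens walls, read 12271 and 7867 at rank 74, while 10 of the 29 measured wall-loosening genes were close to the controls and 14, or 48.3%, were above background beside 55.9% of all named genes. XTH19 (3134 and 3902) and EXLA1 (1952 and 1756) came next in that list, and XTH21 was close to the controls at 0.898 and 1.34. Of 20 measured wall hydrolases 6, or 30%, were above background beside 55.9% of all named genes, led by GH9C2 (781 and 1879), GH9B7 (806 and 1261) and ATPMEPCRB (2051 and 482). On replicate 1 alone 11 of the 20 were above background and on replicate 2 alone 6 were, so this count depends on the array. A call on 1 array asks less than a call on both. On replicate 1 alone 7916 of all 22746 probe sets were at or below background, and on replicate 2 alone 7626 were.

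Detoxifying enzymes had a strong leading member but were above background about as often as named genes in general. GSTU22, a glutathione transferase of the tau class, read 15474 and 11975 at rank 36. UGT72E2, a glucosyltransferase of phenylpropanoids, read 4882 and 3663, and GSTU26 read 3467 and 2892. Of the 62 measured glutathione transferases and glucosyltransferases, 36, or 58.1%, were above background beside 55.9% of all named genes, and 18 were close to it, among them UGT73C1 at 1.06 and 2.21. Of 24 cytochrome P450 genes 12, or 50%, were above background, also near the 55.9% of all named genes, led by CYP71B6 (2622 and 1882), CYP71B23 (1659 and 485) and CYP71B22 (1275 and 590.5), and CYP71B31 was close to the controls at 0.744 and 5.55. Among redox proteins GRX480, a glutaredoxin, read 7835 and 6264 at rank 141, with the metallothionein MT1C (2233 and 1982) and the glutaredoxin GRXC2 (1744 and 1204) behind it. The peroxidase list had PRXR1 (2956 and 5042) and SKU5 at its head. Of its 8 members 3, or 37.5%, were above background beside 55.9% of all named genes. Another 4 were close to the controls, where 30.7% of all named genes lay, among them AT5G66390 at 1.48 and 2.77.

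Of the 42 measured proteases 2, or 4.76%, were in the highest 300 beside 0.858% of all named genes. SCPL34, a serine carboxypeptidase-like protein, read 10474 and 6983 at rank 96, and scpl28 read 5674 and 3623 at rank 298. APA1, an aspartic protease of the vacuole, read 4774 and 3860, outside the highest 300 at rank 330. Of 42 measured members 18, or 42.9%, were above background beside 55.9% of all named genes, and 16 were close to the controls, among them scpl22 at 2.07 and 0.751. Under quantile normalization of the 2 arrays, 1 member in place of 2 lay in the highest 300, and likewise without replicate 1.

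Autophagy genes, which build the vesicles that carry cell contents to the vacuole, were above background in 11 of 11 cases, beside 55.9% of all named genes. The list consists mostly of ATG8 genes, whose product coats the forming vesicle. ATG8H (1847 and 1335), APG8H (1643 and 1146) and APG8A (1240 and 778) were the strongest, and ATG8B (63.2 and 47.2) was the weakest. As deposited, 6522 of all 13286 named genes were higher on replicate 1. Every one of the 11 autophagy genes was higher on replicate 1 as deposited and under both quantile normalizations. Division by the hybridisation controls, which lowers replicate 1 against replicate 2 throughout, left 6.

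Among the 29 measured WRKY, NAC, bZIP, bHLH, HAT and zinc finger factors 2, or 6.90%, were in the highest 300 beside 0.858% of all named genes. The list was also meant for ERF and MYB factors, but no measured member carries such a symbol. STZ (ZAT10), a zinc finger repressor that responds to salt, wounding and touch, read 10887 and 9711 at rank 68, at 13.33 ± 0.12. BZIP53, a bZIP factor of amino acid metabolism under energy shortage, read 11902 and 8295 at rank 72. WRKY6 followed with 3247 and 2499, and WRKY53, a factor of leaf ageing and defence, read 1687 and 2145. Of 29 measured factors 21, or 72.4%, were above background beside 55.9% of all named genes, and bZIP43 was close to the controls at 1.73 and 0.975. Of 32 genes of the early wound and touch response only STZ and WRKY53 were measured, so how far handling or protoplasting of the roots enters these levels was not tested. Of the calcium proteins, the calreticulin CRT1b read 4240 and 7407 at rank 208, and the calmodulin-like genes CML23 (3865 and 2897) and CML37 (1990.1 and 2338) followed. Of 9 members 8, or 88.9%, were above background beside 55.9% of all named genes, CML41 (13.8 and 24.2) being the exception. CRT1b was higher on replicate 2 and left the highest 300 without that array.

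AT1G54410, listed as HIRD11, a small dehydrin, read 11534 and 10334.5 at rank 64, and LTI30, a dehydrin known from cold and drought, read 5261 and 4279 at rank 270. Without replicate 1, LTI30 left the highest 300 and 1 member of the list of cold and water stress proteins was in it in place of 2. RD2 read 2851 and 2013. COR15A, a cold-induced chloroplast protein, lay close to the controls at 19.0 and 12.0. Of 10 measured members 6, or 60%, were above background beside 55.9% of all named genes.

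Several genes of basic metabolism were in the highest 300, of which PMM, ACS, SAMDC, MSRB9, cICDH and also ZCF37 stand on no list and are named because they were seen there. PMM, a phosphomannomutase, read 11249 and 7645. ACS, an acetyl-CoA synthetase, read 6836 and 6472, and TPI, a cytosolic triosephosphate isomerase of glycolysis, read 5786 and 5626. SAMDC, an S-adenosylmethionine decarboxylase of polyamine synthesis, read 5393 and 5297. These last 3 were nearly equal on both arrays. MSRB9, a methionine sulfoxide reductase (4611 and 5577), cICDH, a cytosolic isocitrate dehydrogenase (3931 and 6363), and CYTC-1, a cytochrome c of mitochondrial respiration (4695 and 4858), were higher on replicate 2, and CYTC-1 left the highest 300 without that array. ZCF37 read 5149 and 4319.9. GAPC2 and ENOC of glycolysis read 2646 and 3458, and 746 and 895, and PDC2 of fermentation exceeded background only on replicate 2 (31.5 and 50.05). TUA6 (3556 and 5445) led the tubulins and actins, TUB9 (1206 and 1279) and TUB1 (1305 and 1146) followed, 7 of 9 (77.8%) were above background beside 55.9% of all named genes, and ACT12 was close to the controls at 2.14 and 23.1. HTB4 (1074 and 1778), HTB11 (867 and 1206) and HTB1 (352 and 554) led the histones, 6 of 7 above background (85.7%), and HIS1-3 was above it only on replicate 1 at 41.2 and 23.1. UBC28 (2295 and 1820.2), UBC22 (1084 and 1298) and RPN12a (926 and 903) led the ubiquitin and proteasome list, 11 of 13 above background (84.6%), and UBC31 was close to the controls at 4.09 and 7.85. The 4 measured reference genes, among them PEX4 (842 and 726), lay between 167 and 842.

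Of 27 measured genes on the list of membrane trafficking and secretion 23, or 85.2%, were above background beside 55.9% of all named genes. The list includes VPS genes of endosomal sorting. CHC1 (AT5G14170, 254 and 281), a chromatin protein gene, is counted among the 23 by its symbol. VPS2.1 of the endosomal sorting machinery (1402 and 1309), the SNARE gene SEC22 (1144 and 1208) and the small GTPase gene RAB6A (989.6 and 1079) led the list, and VPS9B was close to the controls at 2.45 and 4.03. All 3 measured VHA-A subunits of the vacuolar and endosomal proton pump were above background, from VHA-A3 (1153 and 1025) through VHA-A2 (733 and 624) to VHA-A1 (468 and 509).

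**Figure D4:**
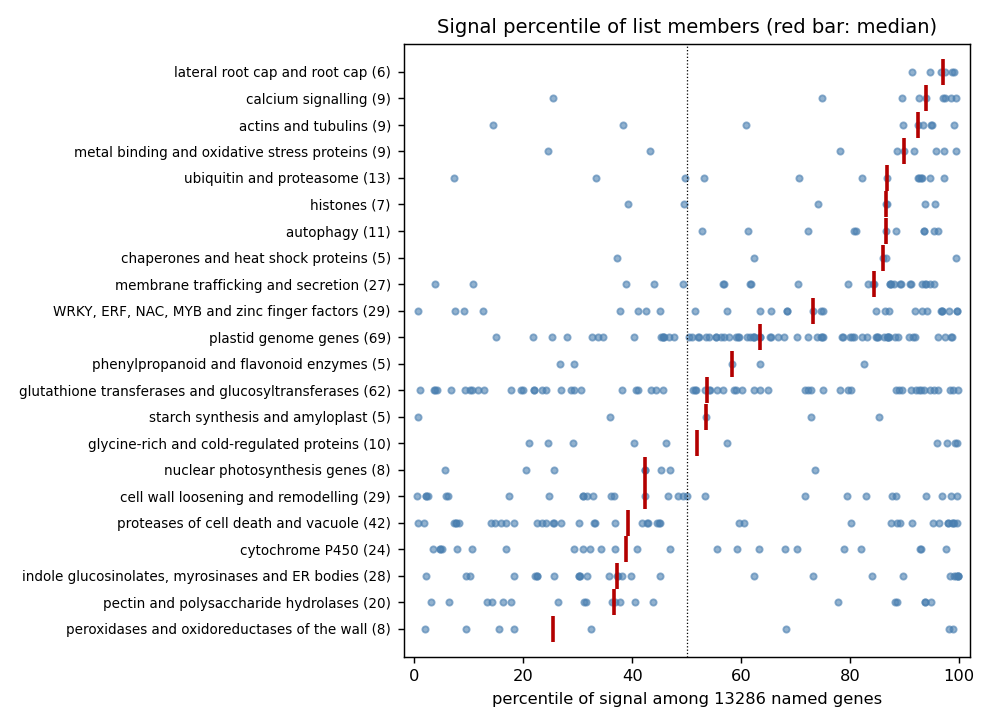
Percentile of each measured list member among 13286 named genes, one line per list with at least 5 measured members and the number measured in brackets, the red bar marking the median. The root cap list has the highest median, 97.1, and the wall peroxidases the lowest, 25.4.

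Of 69 measured genes of the plastid genome 57, or 82.6%, were above background beside 55.9% of all named genes. None was in the highest 300, where the share of all named genes is 0.858%, too small for a list of this size to read anything from a count of 0. The ATP synthase gene atpE (2543 and 5063 at rank 428), the protease gene clpP (2647 and 4120) and the photosystem gene psbM (2131 and 2115) were the strongest, and ndhF was close to the controls at 22.4 and 3.15. All 7 measured ribosomal protein genes of the large plastid subunit were above background, and 7 of 10 ndh genes were. Of the 69 genes 56 were higher on replicate 2, and 57 were under either quantile normalization. As deposited, 13 of the 69 were higher on replicate 1, beside 6522 of all 13286 named genes. Of 8 measured nuclear photosynthesis genes 4, or 50%, were above background, near the 55.9% of all named genes. PSBY was highest with 273 and 118, then LHCB4.3 (46.6 and 36.0), LHCB4.1 (39.8 and 37.6) and RCA (37.2 and 32.7). PSAE-1 was close to the controls at 5.50 and 3.77. Amyloplast genes were few and of middle signal, led by DPE1 (324 and 490.1), SBE2.2 (183 and 161) and APL4 (59.8 and 54.0), and QQS was close to the controls at 1.10 and 1.70.

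Small lists are given by their members. Chaperones after CRT1b were PDIL5-1 (396 and 485) and Cpn60beta2 (197 and 878), and Cpn60beta4 was above background only on replicate 2 at 28.7 and 29.4. Phenylpropanoid genes were CCOAMT (579 and 181), CHIL (119 and 81.6) and HCT (71.6 and 75.7), and CCR2 was close to the controls at 19.4 and 20.2. Jasmonate genes were OPCL1 (1272 and 1067), JRG21 (74.1 and 215) and JMT, close to the controls at 1.46 and 13.5. The translation factor EIF4A-2 read 1059 and 1445, CYTC-2 read 1269 and 1677, and OASA2, an enzyme-family member of cysteine synthesis, read 250.3 and 146.1. In all, 462 genes on the lists were measured, 16 of them in the highest 300, where 114 of all 13286 named genes (0.858%) lay. Of 44 lists 7 had no measured member.

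The 2 arrays shared most of their strongest signals but differed in level at the top. Over all probe sets Pearson's r of the log2 values was 0.959, over those above background 0.959 and over those close to the controls 0.293. These are descriptions across probe sets of 2 arrays. The highest 300 of replicate 1 and of replicate 2 shared 224 probe sets, and every member of the joint 300 ranked at 496 or better on replicate 1 and at 557 or better on replicate 2. Of the 300, 228, or 76%, were higher on replicate 1, beside 47.7% of all probe sets above background, with a median difference of 0.36 in favour of replicate 1. At ranks 6001 to 10000 the median difference was −0.11. The hybridisation controls moved the same way as the highest 300: 17 of 18 were higher on replicate 1, at a median ratio of 1.38. After quantile normalization of the 2 arrays 158 of the 300 were higher on replicate 1, and 159 were after that of all 6 arrays. Division by the controls lowers all signals of replicate 1 against those of replicate 2, moving the median difference of all probe sets from -0.02 to -0.36, and the 120 of 300 then higher on replicate 1 include that shift. The ratio of 3′ to 5′ signal, a sign of RNA length after labelling, was 3.11 and 3.41 for GAPDH, 2.73 and 5.12 for actin, and 2.11 and 2.59 for ubiquitin. A second pair of control probe sets gave lower ratios, 1.33 and 1.40 for GAPDH and 1.90 and 1.63 for actin. For actin the 2 pairs thus differed in which array had the higher ratio. The part of this ratio in the differences between arrays was not tested.

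**Figure D5:**
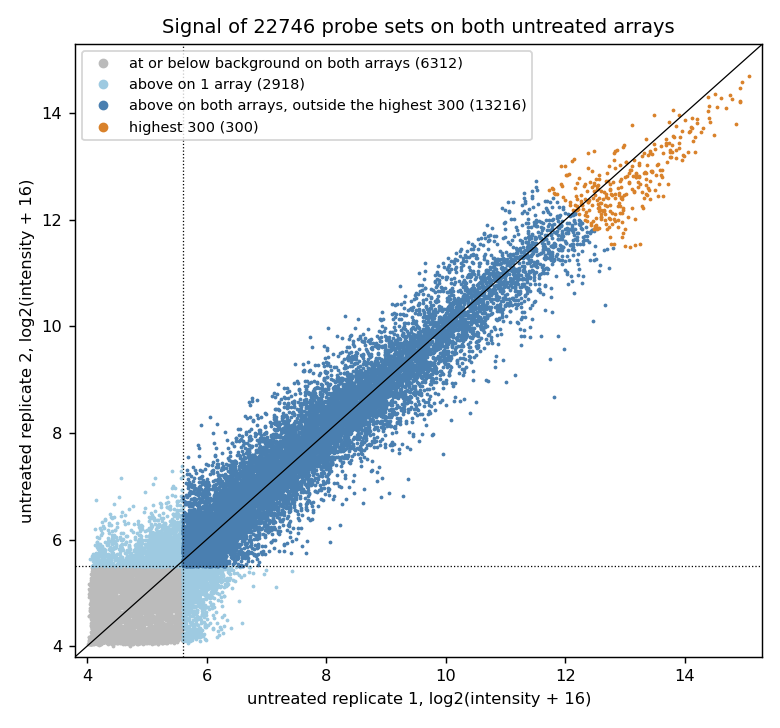
Log2(intensity + 16) of 22746 probe sets on replicate 1 (horizontal axis) and replicate 2 (vertical axis), with each array's background as a dotted line and equality as a solid line. The highest 300 (orange) lie mostly below the line of equality, 228 of 300 as deposited and 158 after quantile normalization of the 2 arrays, and the 6312 probe sets close to the controls (grey) fill the lower left corner without a visible trend.

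Among named genes above background on both arrays, 164 were more than 1 log2 unit higher on replicate 1 and 263 on replicate 2. The largest differences toward replicate 1 were those of AT3G22060 (4039.9 and 746), AT5G40590 (6491 and 1339.6), AT1G26380 (647 and 124), AT3G18250 (517 and 100.9) and AT5G43520 (2279.6 and 525). These ranged from 5.32-fold to 4.24-fold. Toward replicate 2 they were Cpn60beta2, a subunit of the plastid chaperonin (197 and 878), AT1G80750 (56.0 and 269.9), AT5G60670 (247 and 984), AT3G44050 (42.0 and 203) and 3xHMG-box2, a chromatin protein of dividing cells (301 and 1159.9). Their ratios of replicate 2 over replicate 1 ran from 4.21 to 3.71. With 2 arrays, a level of any of these genes rests on which array is read.

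At the edge of the highest 300, the named genes just inside were AT4G30010 (12.16, rank 297), scpl28 (12.15, rank 298) and AT1G67430 (12.15, rank 300), and those just outside were AT4G18950 (12.15, rank 301), AT4G04460 (12.13, rank 306) and ACLA-1, a subunit of ATP citrate lyase (12.12, rank 308). Members on the 2 sides of the edge were closer to each other than the spread between arrays of most of them. At the edge of the background, AT5G04810 (32.5 and 37.8), AT1G55030 (39.5 and 29.1) and TRM82 (32.5 and 56.9) counted as above, and AT3G57100 (32.4 and 8.03), TRM23 (19.6 and 29.1) and AT2G12900 (32.4 and 13.6) as close. Of the 13286 named genes 7428, or 55.9%, were above background on both arrays and 4085, or 30.7%, were close to the controls.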

How the data were processed

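RNA of sorted cells was hybridised to Affymetrix ATH1 arrays after 2 rounds of biotin labelling, per the labels. The deposited table holds the authors' linear intensity per probe set; its summarising software is not given in the sources used here, and both columns have a mean of 250.03 after trimming 2% at each end, so they were scaled before deposit. From there log2(intensity + 16) was taken without further normalization, and probe sets were ranked by the mean of the 2 untreated arrays with pandas 2.3.3, numpy 2.4.6 and Python 3.11.15. A simulated pair of arrays, with some probe sets raised above every measured mean, served only as a check that the code ranks these high. Their place was fixed by that setting, and calls near the background were not checked. No test was run, since there is 1 group and no contrast. The labels call the arrays biological replicates and say no more of their origin, and only 2 limit the precision.

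Genes were named where the platform annotation lists 1 gene that matches a locus of RefSeq assembly TAIR10.1, which gives the coordinates. This held for 13436 probe sets. For 144 genes with more than 1 probe set the highest was taken. Named are the 30 highest genes, the 3 highest and the lowest member of each list, every cell type, auxin and cytokinin marker measured, the 3 genes on either side of rank 300 and of the background, and the 5 largest differences between arrays each way. Other genes with a symbol in the highest 300 and members beyond the first 3 of a list were chosen after their values were seen. Members and lists were chosen with earlier results of these data known, and 17 genes whose symbol matched a list by its letters alone were left out. CHC1 was not among these and stayed on its list. Promoter and protein sequences were not used here. Alternatives covered the scaling, pseudocount, background, ranking value, probe set rule, depth of the top set and each array.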

Additional observations from a re-analysis of the deposited data

How the results depend on the processing

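No paired analysis was possible because 1 group was described and no test was run. Under quantile normalization of 2 or of 6 arrays, pseudocounts of 1 and 64, and ranking by linear means, 297 to 300 of the highest 300 remained. Leaving out 1 array kept 258 to 266. The set close to the controls numbered 6306 to 6314 under quantile normalization and other pseudocounts, 7626 to 7916 on a single array and 7581 against the highest Bacillus control, but 2404 against the median one. The scalings of the agreement between arrays were added after seeing the data: division by the hybridisation controls lowers replicate 1 against replicate 2 throughout, moving the median difference of all probe sets from -0.02 to -0.36, and with that shift included left 120 of the highest 300 and 6 of 11 autophagy genes higher on replicate 1. The median gene length was 2004 bases in the highest 600 and 1916.5 in the highest 300, against 1996 and 1895 in the 300 highest of each array alone. Of 392 values for single lists under an alternative, 11 moved by over 1.5 times, all but 2 of them counts of 2 or fewer. Promoter motifs and protein lengths were not run. Genes close to the Bacillus controls are not ranked against each other.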

Other observations

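The strongest signal of all came from a probe set that the platform annotation does not list, with 34647 on replicate 1 and 26443 on replicate 2. The probe sets at rank 9 (23223 and 20975) and rank 11 (21408 and 20192) were also unlisted and varied little between arrays, with an SD of 0.10 and 0.06. Among probe sets that match several genes the strongest were at rank 8 (25055 and 19881) and rank 21 (18915 and 14412). The one at rank 37 was higher on replicate 2 (11476 and 16032). None of these 6 could be given a gene here.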
